A study of Rattus norvegicus with 10 samples.

Results

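10 genes best known from macrophages were followed in JUG2 cells, an enteric glial cell (EGC) line from rat: Mpeg1, Fcgr2a, Cd14, Tlr2, Tlr4, C1qa, C1qb, C1qc, Cybb and Laptm5. They are 10 of the 15037 genes with a symbol on the array, and each was read from its transcript cluster with the highest mean signal. The set was chosen from these same data because Mpeg1 was higher and Fcgr2a lower after SOX10 overexpression, so the values of the 10 genes in the SOX10 line are given as a description, with no test. The study asked which genes respond to SOX10 in EGC. Total RNA was hybridised to 10 Clariom S arrays, and all signals below are deposited log2 signals.

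The SOX10 line carries a doxycycline-inducible SOX10 construct and the GFP line an inducible GFP construct. SOX10 +dox cells (4 arrays) had received 1 µg/ml doxycycline for 48 h, and SOX10 -dox cells (4 arrays) had not. GFP +dox (1 array) and GFP -dox (1 array) cells were handled the same way. All are cultures of 1 dedifferentiated cell line, with no primary glia or macrophages among the arrays. On replicates 2 to 4, Sox10 averaged 12.86 ± 0.21 in SOX10 +dox and 6.31 ± 0.17 in SOX10 -dox (SD, n = 3 each). On replicate 1 it ran against both labels, at 6.74 on the array labelled SOX10 +dox and 12.90 on the array labelled SOX10 -dox. Group means therefore use replicates 2 to 4, and the replicate 1 arrays are shown apart under their labels. The array carries 23 background probe sets that match no genome. They ran between 2.48 and 8.29 over the 10 arrays, and their median per array lay between 6.53 and 6.83. The highest of them per array lay between 7.45 and 8.29. A signal up to the highest probe set of its array is called inside the background range, and one beyond it above background. The level of a signal inside that range cannot be told from background, although groups of arrays can still differ there. Signals of different genes cannot be ranked because probes differ in brightness, so the range is a rough guide and not a test of detection.

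Macrophages recognise microbes through surface receptors, engulf them, and destroy them in phagosomes with oxidants, acid and pore-forming proteins. CD14 hands lipopolysaccharide to TLR4, Fc receptors bind antibody-coated particles, and C1q starts the classical complement cascade. Glial cells of the brain and gut can carry several of these receptors, which is why they are counted among innate immune sensors in nervous tissue.

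The label of the set held for only some of its genes. Fcgr2a, Cd14, Tlr4 and C1qa exceeded the highest background probe set on 10 of 10 arrays. Cybb did so on 8 of 10, Mpeg1 on 4 of 10 and Tlr2 on 2 of 10, while Laptm5, C1qb and C1qc did so on 0 of 10. The defining genes of macrophages also did so on 0 of 10 arrays. These were Ptprc (CD45), Csf1r, Aif1 (IBA1), Itgam, Spi1 (PU.1), Tyrobp, Cd68, Adgre1 and Cx3cr1. Cd68, between 6.70 and 7.89, exceeded the median background probe set on 10 of 10 arrays, and the rest of these on 0 of 10. Of 31 measured genes of a macrophage and microglia list, 27 exceeded the highest background probe set on no array. The exceptions were Cd48, a surface protein of blood cells, on every array, and Lyz2, Lcp1 and Cd80 on some. The glial markers S100b, between 5.09 and 7.79, and Gfap, between 5.44 and 6.30, also stayed below it on every array. Other glial markers did not. On replicates 2 to 4, Erbb3 and Nes each exceeded it on 3 of 3 SOX10 +dox arrays and 0 of 3 SOX10 -dox arrays.

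**Figure D1:**
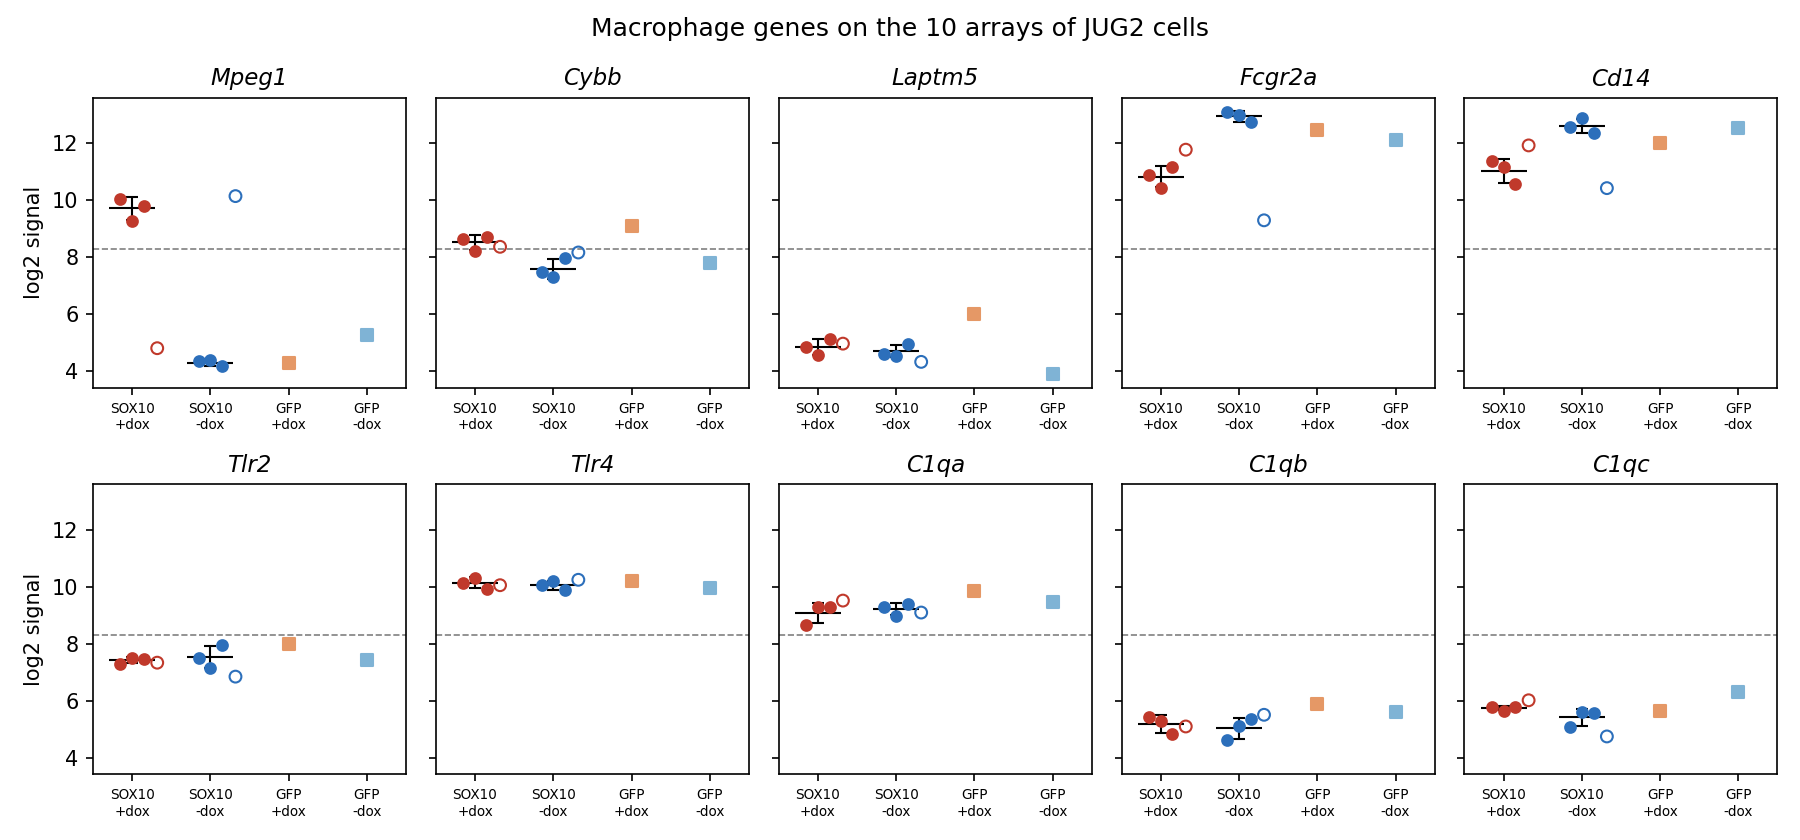
Log2 signals of the 10 genes on all arrays, with SOX10 +dox left of SOX10 -dox and GFP +dox left of GFP -dox. Filled circles are replicates 2 to 4 with a bar for mean ± SD, open circles are the replicate 1 arrays under their labels, squares are the single GFP arrays, and the dashed line is the highest background probe set over all arrays, 8.29. Mpeg1 lies above the line on SOX10 +dox replicates 2 to 4 and, of replicate 1, on the SOX10 -dox array, while Fcgr2a and Cd14 lie above it in every group.

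Mpeg1 encodes perforin-2, a pore-forming protein of phagosomes with a membrane attack complex/perforin (MACPF) domain. It measured 10.05, 9.28 and 9.82 on SOX10 +dox replicates 2, 3 and 4, against 4.35, 4.40 and 4.17 on SOX10 -dox replicates 2, 3 and 4. The groups lay far apart, and every SOX10 -dox signal was inside the background range. The difference was 5.41 ± 0.25 (log2 ± SE of the limma fit), or 42.4-fold as measured. Against the mean of the highest background probe sets on the SOX10 -dox arrays, 7.81, Mpeg1 was at least 3.75-fold higher in SOX10 +dox. In RNA of a whole culture, more cells with a transcript and more transcript per cell cannot be told apart. Mpeg1 followed Sox10 rather than the label on replicate 1, with 4.81 on the array labelled SOX10 +dox and 10.15 on the array labelled SOX10 -dox.

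Genes for proteins that share its domain, form pores or act beside such proteins did not pass the test. The list held 16 measured genes, of MACPF and gasdermin proteins and also Nlrp3, Casp1 and Casp4. Of these 16, 0 were called a differentially expressed gene (DEG, adjusted p under 0.05 and at least 2-fold) in either direction. Their median difference was -0.06, against -0.02 over all 23188 transcript clusters. Among all transcript clusters, 2.26% were called higher and 1.24% lower in SOX10 +dox. Perforin (Prf1) differed by -0.24 (limma adjusted p = 0.765), the complement pore component C9 by 0.16 (adjusted p = 0.87) and Casp1, an inflammasome protease, by 0.79 (adjusted p = 0.215).

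To show the sequence in front of the genes for which the set was chosen, the 250 bases before the start site are given for Mpeg1, for both annotated starts of Fcgr2a and, as a gene whose groups overlapped, for Tlr4 (RefSeq, assembly GRCr8). Capitals mark matches to a SOX core motif, ACAAAG or ACAATG, or to a PU.1 core motif, AGGAAG, on either strand, so that CTTCCT is AGGAAG on the other strand.
Mpeg1, chr1:218876644-218876893, plus strand: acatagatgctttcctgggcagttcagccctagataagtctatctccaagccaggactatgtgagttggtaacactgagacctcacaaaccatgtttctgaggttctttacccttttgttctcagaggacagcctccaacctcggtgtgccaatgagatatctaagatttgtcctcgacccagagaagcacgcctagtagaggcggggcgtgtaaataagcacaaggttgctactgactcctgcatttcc
Fcgr2a, first entry, chr13:85826733-85826982, minus strand: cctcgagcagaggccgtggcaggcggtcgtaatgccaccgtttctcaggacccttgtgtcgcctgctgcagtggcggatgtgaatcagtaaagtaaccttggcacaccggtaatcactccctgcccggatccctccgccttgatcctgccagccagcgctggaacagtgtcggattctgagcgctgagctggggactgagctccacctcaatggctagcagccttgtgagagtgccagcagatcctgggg
Fcgr2a, second entry, chr13:85828686-85828935, minus strand: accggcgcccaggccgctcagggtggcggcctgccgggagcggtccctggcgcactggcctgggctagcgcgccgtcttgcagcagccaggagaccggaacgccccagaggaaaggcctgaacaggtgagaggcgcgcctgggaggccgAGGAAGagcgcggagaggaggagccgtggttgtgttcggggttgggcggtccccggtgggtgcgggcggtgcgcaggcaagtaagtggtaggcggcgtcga
Tlr4, chr5:85160997-85161246, plus strand: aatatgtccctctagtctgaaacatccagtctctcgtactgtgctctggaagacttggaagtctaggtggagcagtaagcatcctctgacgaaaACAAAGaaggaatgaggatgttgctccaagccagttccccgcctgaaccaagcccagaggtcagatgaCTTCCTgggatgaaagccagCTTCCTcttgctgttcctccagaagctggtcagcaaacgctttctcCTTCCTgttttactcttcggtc
The Mpeg1 window held 0 matches to either motif. The first Fcgr2a window held 0 and the second 1, to the PU.1 motif, and Tlr4 held 1 SOX match and 3 PU.1 matches. Of the other genes described, Cd14, which was lower in SOX10 +dox, held 3 PU.1 matches, as many as Tlr4, and Cybb held 0 of either. No matches overlapped each other. Entries were found for 9 of the 10 genes, and C1qc had none. Over the 10 windows of these 9 genes, 1 held a SOX match and 5 held a PU.1 match. Among 33469 rat promoter windows of the same length, 25.3% held a SOX match and 29.5% a PU.1 match. A match is a run of letters and not a site of binding.

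Fcgr2a encodes a low-affinity receptor for the constant part of IgG. It measured 10.90, 10.44 and 11.16 on SOX10 +dox replicates 2, 3 and 4, against 13.10, 13.00 and 12.74 on SOX10 -dox replicates 2, 3 and 4. The groups did not overlap, and both lay well above background. The difference was -2.12 ± 0.25, or 0.231 of the SOX10 -dox signal. Replicate 1 again followed Sox10, with 11.78 on the array labelled SOX10 +dox and 9.30 on the array labelled SOX10 -dox.

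The genes of the Fc receptor locus resemble each other in sequence, so probes of one may bind transcripts of another. A pair of further transcript clusters carries the name Fcgr2a together with other names, and they averaged 9.83 ± 0.27 and 10.29 ± 0.16 in SOX10 +dox, against 12.26 ± 0.32 and 12.85 ± 0.20 in SOX10 -dox (SD, n = 3 each). Fcgr2al1, a paralog beside Fcgr2a, averaged 8.86 ± 0.34 in SOX10 +dox and 10.71 ± 0.21 in SOX10 -dox. The 4 transcript clusters thus had differences between -2.56 and -1.85, but they are not independent readings. Further genes of surface Fc receptors had signals inside the background range and did not pass the test. Fcgr2b, the inhibitory receptor, differed by 0.05 (limma adjusted p = 0.961), Fcgr3a by -0.01 (adjusted p = 0.99), Fcgr1a, the high-affinity receptor, by -0.31 (adjusted p = 0.757), and Fcer1g, the signalling chain that several Fc receptors need, by -0.18 (adjusted p = 0.802). Of 26 measured genes for Fc receptors and their signalling, 0 were called, against 2.26% called higher and 1.24% lower over all transcript clusters. Their median difference was 0.01.

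**Figure D2:**
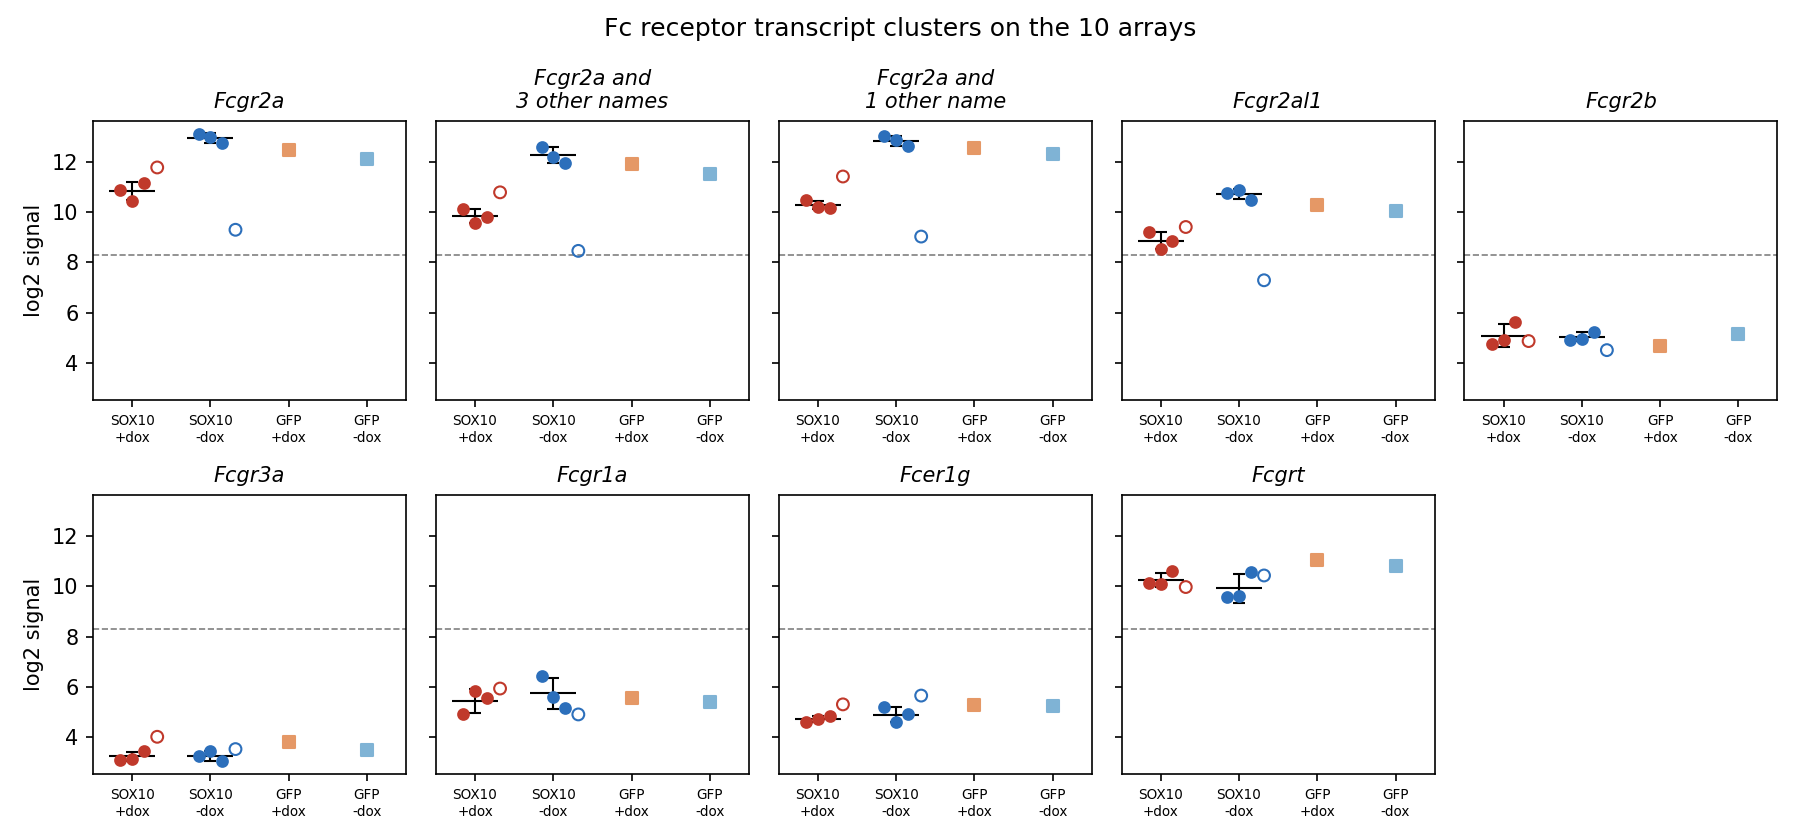
Log2 signals of the Fc receptor transcript clusters by group, with SOX10 +dox left of SOX10 -dox and GFP +dox left of GFP -dox. Symbols are as in the plot of the 10 genes. The 3 clusters named Fcgr2a and the one named Fcgr2al1 are lower in SOX10 +dox on replicates 2 to 4, with differences between -2.56 and -1.85, and Fcgr2b, Fcgr3a, Fcgr1a and Fcer1g sit below the dashed line in every group. Fcgrt, the neonatal Fc receptor, averages 10.27 ± 0.28 in SOX10 +dox and 9.92 ± 0.57 in SOX10 -dox.

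Cd14, a co-receptor without a signalling tail, moved in the same direction as Fcgr2a. It measured 11.38, 11.16 and 10.58 on SOX10 +dox replicates 2, 3 and 4, against 12.59, 12.88 and 12.36 on SOX10 -dox replicates 2, 3 and 4. The groups did not overlap, and the difference was -1.57 ± 0.26, or 0.337 of the SOX10 -dox signal. On replicate 1, Cd14 was 11.93 under the label SOX10 +dox and 10.43 under the label SOX10 -dox.

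The SOX10 +dox and -dox signals of the receptors that CD14 serves overlapped. Tlr4, the lipopolysaccharide receptor, measured 10.14, 10.32 and 9.93 in SOX10 +dox and 10.05, 10.20 and 9.88 in SOX10 -dox, a difference of 0.09 ± 0.22, and its signals spanned only 0.44 over all 10 arrays. Tlr2, the receptor for bacterial lipoproteins, measured 7.30, 7.51 and 7.46 in SOX10 +dox and 7.48, 7.16 and 7.94 in SOX10 -dox, a difference of -0.10 ± 0.25. Tlr2 was near the upper end of the background range.

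Among 33 further Toll-like receptor and adaptor genes, 0 were called higher and 1 lower, and their median difference was 0.00. The shares over all transcript clusters were 2.26% higher and 1.24% lower. The gene called was Tlr5, the flagellin receptor, which averaged 8.97 ± 0.15 in SOX10 +dox and 10.99 ± 0.39 in SOX10 -dox (SD, n = 3 each). It fell by 2.02 ± 0.25 (limma adjusted p = 0.000879), and was 1.27 lower in GFP +dox than in GFP -dox. Ly96, which encodes the MD-2 subunit of the lipopolysaccharide receptor, differed by -0.23 ± 0.38 (adjusted p = 0.863), and the shared adaptor Myd88 by 0.36 ± 0.24 (adjusted p = 0.547). Of 24 genes known as NF-kappaB targets, 1 was called higher and 0 lower. This was Sod2, the mitochondrial superoxide dismutase, which rose by 1.56 ± 0.32 (adjusted p = 0.0207). Its adjusted p was 0.0967 in a fit lacking SOX10 +dox replicate 2, 0.102 lacking SOX10 +dox replicate 3, 0.0503 lacking SOX10 -dox replicate 2 and 0.0693 lacking SOX10 -dox replicate 4.

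The 3 chains of C1q are encoded by genes that lie together on the chromosome, and their products assemble into 1 molecule. C1qa measured 8.65, 9.27 and 9.29 in SOX10 +dox and 9.28, 8.98 and 9.38 in SOX10 -dox, a difference of -0.15 ± 0.25. C1qb measured 5.44, 5.27 and 4.84 in SOX10 +dox and 4.61, 5.10 and 5.36 in SOX10 -dox, a difference of 0.16 ± 0.26. Both overlapped between the groups. C1qc measured 5.78, 5.64 and 5.78 in SOX10 +dox and 5.07, 5.59 and 5.58 in SOX10 -dox, so its groups did not overlap, with a gap smaller than their SD and a difference of 0.32 ± 0.23. C1qb and C1qc were inside the background range on all arrays, so only C1qa was above background, and whether the chains moved together cannot be told.

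Both proteases that C1q activates fell. C1r averaged 10.67 ± 0.43 in SOX10 +dox and 12.32 ± 0.14 in SOX10 -dox (SD, n = 3 each) and fell by 1.66 ± 0.26 (limma adjusted p = 0.004). C1s averaged 8.42 ± 0.47 in SOX10 +dox and 10.27 ± 0.24 in SOX10 -dox and fell by 1.85 ± 0.27 (adjusted p = 0.00288), with 2 of 3 SOX10 +dox signals above background. Without any 1 of the 6 arrays, adjusted p stayed between 0.0064 and 0.0268 for C1r and between 0.0027 and 0.0212 for C1s. Both were also lower in GFP +dox than in GFP -dox, by single-array differences of -0.77 for C1r and -0.38 for C1s, which did not pass the test. C3, the central complement component, differed by 0.30 (adjusted p = 0.611). C1r and C1s were the 2 genes called among 30 measured complement genes, whose median difference was -0.16. Of all transcript clusters, 2.26% were called higher and 1.24% lower. With the replicate number as a block, 1 complement gene was called higher and 3 lower.

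Cybb encodes NOX2 (gp91phox), the catalytic subunit of the phagocyte NADPH oxidase. It measured 8.66, 8.23 and 8.70 in SOX10 +dox, against 7.50, 7.30 and 7.96 in SOX10 -dox. The groups did not overlap, and the difference was 0.95 ± 0.25, or 1.93-fold as measured. Cybb exceeded background on 3 of 3 SOX10 +dox arrays and on 1 of 3 SOX10 -dox arrays. The fold is thus against a group mostly inside the background range. On replicate 1 Cybb did not follow Sox10, at 8.37 under the label SOX10 +dox and 8.17 under the label SOX10 -dox.

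The subunit that stabilises NOX2 was lower in SOX10 +dox. Cyba (p22phox) averaged 7.28 ± 0.21 in SOX10 +dox and 8.38 ± 0.22 in SOX10 -dox (SD, n = 3 each), and fell by 1.10 ± 0.23 as measured (limma adjusted p = 0.0207). Its SOX10 +dox signals were inside the background range on 3 of 3 arrays, and against the highest background probe sets there Cyba was at least 1.25-fold lower. Duox1, another NADPH oxidase, averaged 12.94 ± 0.09 in SOX10 +dox and 14.07 ± 0.23 in SOX10 -dox, and fell by 1.13 ± 0.22 (adjusted p = 0.0139). With 1 array left out at a time, the differences ran between -1.21 and -0.97 for Cyba and between -1.27 and -1.06 for Duox1, but the calls did not always hold. That of Cyba failed in fits lacking SOX10 +dox replicate 2 (0.0879) or SOX10 -dox replicate 2 (0.0635), 3 (0.0586) or 4 (0.0679), the adjusted p being given in brackets, and with array weights, where its difference of -0.99 missed 2-fold. That of Duox1 failed in fits lacking SOX10 +dox replicate 2 (0.0692) or 3 (0.0607) or SOX10 -dox replicate 2 (0.0709) or 3 (0.0735). The cytosolic subunits Ncf1, with a difference of 0.73 ± 0.32 (adjusted p = 0.312), and Ncf4, with 0.09 (adjusted p = 0.913), did not pass. Over 15 measured NADPH oxidase genes other than Cybb, 0 were called higher and 2 lower, with a median of -0.17. Over all transcript clusters, 2.26% were called higher and 1.24% lower.

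Laptm5, a lysosomal membrane protein of blood cells, measured 4.86, 4.57 and 5.15 in SOX10 +dox and 4.62, 4.55 and 4.95 in SOX10 -dox. The groups overlapped inside the background range, with a difference of 0.15 ± 0.24. Its relatives with wider tissue use, Laptm4a and Laptm4b, differed by -0.06 (limma adjusted p = 0.947) and 0.27 (adjusted p = 0.781). Of 34 measured lysosome genes, 2 were called higher and 1 lower, against 2.26% and 1.24% of all transcript clusters. Their median difference was 0.29. With the replicate block, 2 lysosome genes were called lower. Scarb2, a carrier of glucocerebrosidase, rose by 1.29 ± 0.27 (adjusted p = 0.0212), the protease Ctsa rose by 1.06 ± 0.21 (adjusted p = 0.0169), and Lipa, the acid lipase, fell by 1.19 ± 0.25 (adjusted p = 0.023). All 3 calls were lost in leave-one-out fits, in which adjusted p reached 0.0988 for Scarb2 (without SOX10 -dox replicate 3, and also lost without SOX10 +dox or -dox replicate 2), 0.0791 for Ctsa (without SOX10 +dox replicate 2, and lost without any array but SOX10 +dox replicate 4) and 0.111 for Lipa (without SOX10 -dox replicate 3, and lost without replicate 2 or 3 of either group).

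**Figure D3:**
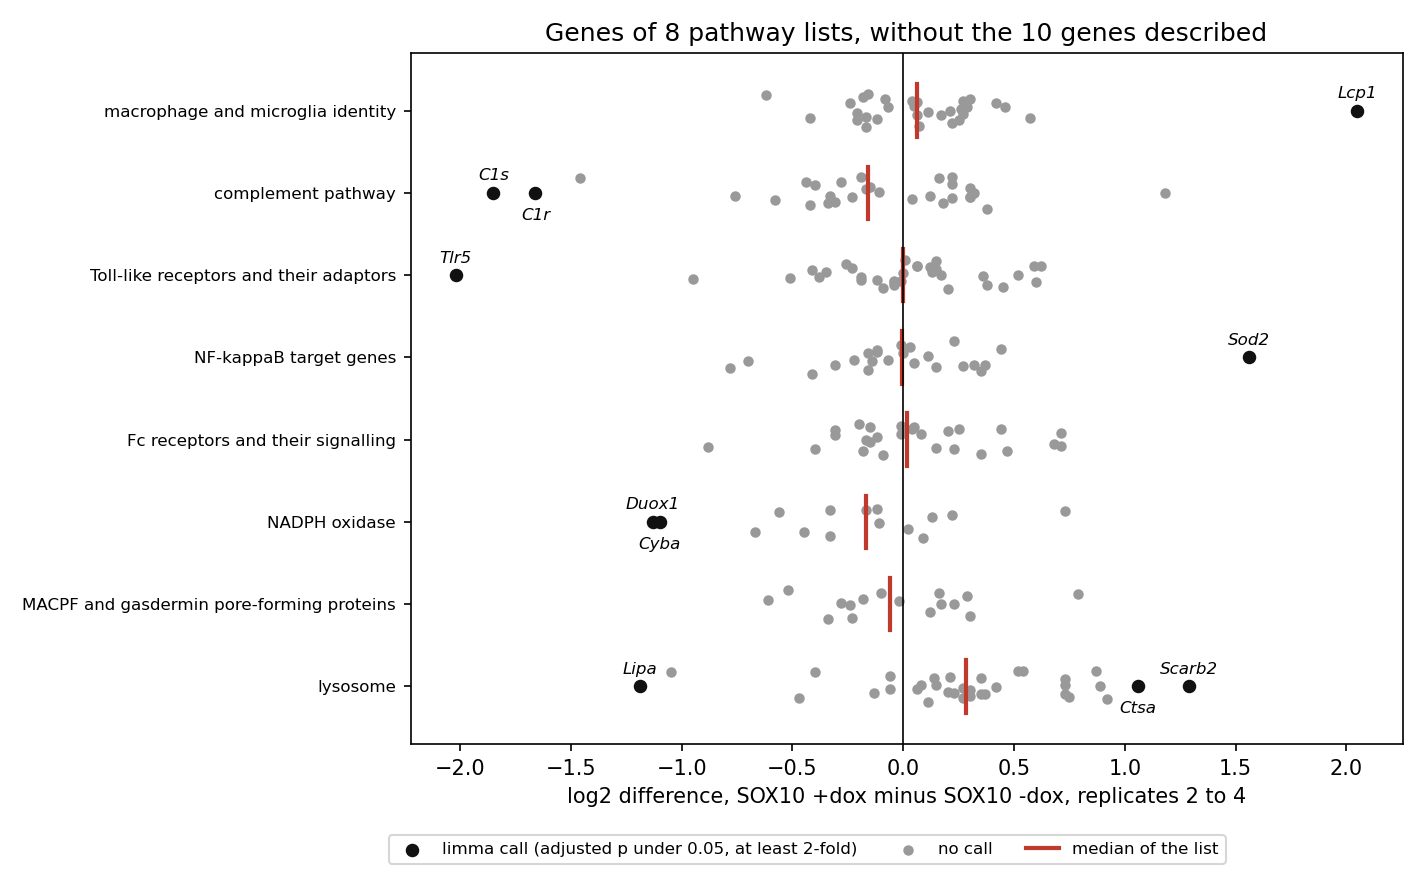
Log2 differences between SOX10 +dox and SOX10 -dox (replicates 2 to 4) for the measured genes of 8 pathway lists, without the 10 genes described. Black points are DEGs in the limma fit, grey points are not, and red bars are list medians. The calls are a few genes, among them C1r with C1s and Cyba with Duox1, at the edges of lists whose medians lie between -0.17 and 0.29.

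Over the 10 genes in the SOX10 line, 3 did not overlap between the groups and were higher in SOX10 +dox (Mpeg1, Cybb and C1qc) and 2 did not overlap and were lower (Fcgr2a and Cd14). Over all transcript clusters, 9.5% were higher and 10.5% lower without overlap. These counts include the genes the set was chosen for. In the 8 pathway lists, which hold 204 other genes, 4 were called higher and 6 lower. Over all transcript clusters, the limma fit called 2.26% higher and 1.24% lower. The gene called in the macrophage and microglia list was Lcp1 (L-plastin, an actin-bundling protein of blood cells that other cells can also express), which averaged 9.75 ± 0.23 in SOX10 +dox and 7.70 ± 0.34 in SOX10 -dox (SD, n = 3 each) and rose by 2.05 ± 0.25 (limma adjusted p = 0.000779), with 1 of 3 SOX10 -dox signals above background. It too followed Sox10 on replicate 1, where its difference as labelled was -2.25. The median of the 31 genes was 0.06, and their mean signal lay between 5.41 and 5.63 on SOX10 +dox and between 5.35 and 5.46 on SOX10 -dox arrays.

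Calls in lists of other cell types stand beside 2.26% called higher and 1.24% called lower over all transcript clusters. For lymphocyte genes 0 of 14 were called, and for fibroblast and smooth muscle genes 0 of 15 (1 lower with the replicate block). In a list of neutrophil and mast cell genes, 1 of 17 was called, Kit, a receptor that neural crest cells also use, with a difference of 1.29 ± 0.30 (limma adjusted p = 0.0346), which was no call in fits lacking SOX10 +dox replicate 3 (0.153) or 4 (0.0586) or SOX10 -dox replicate 2 (0.144) or 3 (0.146). In a list of endothelial genes, 2 of 12 were called lower, Flt1 by -1.51 ± 0.29 (adjusted p = 0.0139) and Eng by -1.02 ± 0.23 (adjusted p = 0.0299). Flt1 was no call in fits lacking SOX10 +dox replicate 2 (0.0701) or 3 (0.0739), and Eng without any array but SOX10 +dox replicate 4, with adjusted p up to 0.135. Flt1 and Kit were above background on all 6 arrays, and Eng was inside the background range on all 6. The Eng groups did not overlap, at 6.0, 6.5 and 6.51 in SOX10 +dox against 7.42, 7.38 and 7.28 in SOX10 -dox. How large its change was cannot be told from signals at that level. Of 14 enteric glia genes, 4 were called higher, and all 4 were inside the background range on the SOX10 -dox arrays. Against the highest background probe sets of those arrays, Erbb3 was at least 52.4-fold and Nes at least 2.35-fold higher in SOX10 +dox, while S100b exceeded background on 0 of 3 and Ngfr on 1 of 3 SOX10 +dox arrays, so no fold is given for them.

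GFP +dox cells received doxycycline without the SOX10 construct. In this line, 0 of the 10 genes were called, as were 0.0% of all transcript clusters in either direction, with 1 array per group assumed to vary like the SOX10 arrays. At an unadjusted p under 0.05, 3 of the 10 genes passed, against 6.29% of all transcript clusters. Past 2-fold, 2 of the 10 were higher in GFP +dox, Laptm5 and Cybb, against 3.66% of all transcript clusters, and 0 were lower, against 2.27%. Laptm5 measured 6.0 in GFP +dox and 3.89 in GFP -dox, a difference of 2.11 ± 0.41 (limma adjusted p = 0.65), with both signals inside the background range. Cybb measured 9.09 in GFP +dox and 7.81 in GFP -dox, a difference of 1.29 ± 0.43 (limma adjusted p = 0.707). Mpeg1 measured 4.30 in GFP +dox and 5.26 in GFP -dox, a difference of -0.96 ± 0.43 (limma adjusted p = 0.783), again inside the background range.

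Cybb, above background in GFP +dox, thus differed by 1.29 in the GFP line and by 0.95 in the SOX10 line. Fcgr2a measured 12.47 in GFP +dox and 12.12 in GFP -dox, a difference of 0.35 ± 0.43 (limma adjusted p = 0.936). Cd14 measured 12.01 in GFP +dox and 12.54 in GFP -dox, a difference of -0.53 ± 0.46 (adjusted p = 0.896). Whether the effects differ between the lines was not tested for these genes, because the rule that chose them used the SOX10 effect.

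**Figure D4:**
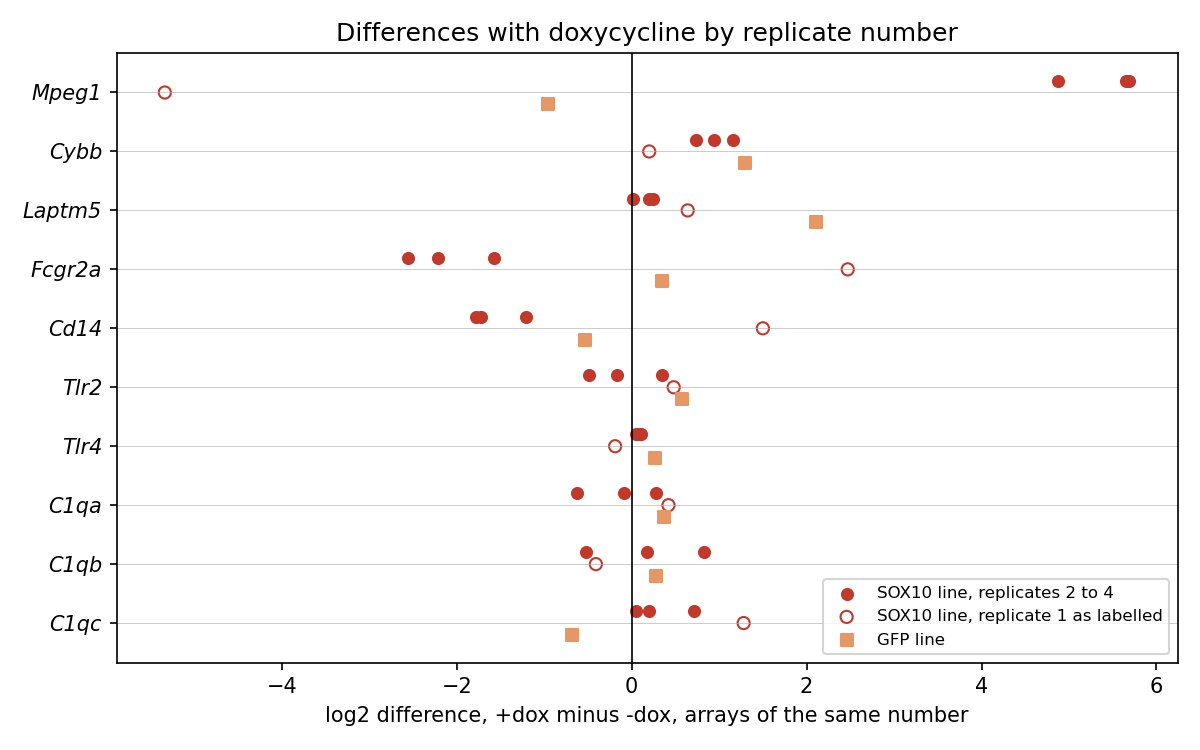
Log2 differences, +dox minus -dox, for each of the 10 genes: pairs of equal replicate number 2 to 4 of the SOX10 line, the replicate 1 pair as labelled, and the GFP pair. Mpeg1 lies between 4.88 and 5.69 on replicates 2 to 4 and at -5.34 on replicate 1, and Fcgr2a lies between -2.56 and -1.58 on replicates 2 to 4 and at 2.47 on replicate 1.

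Without doxycycline, 0 of the 10 genes were called between the lines (SOX10 -dox against GFP -dox, limma adjusted p = 1 for each), and 0.0% of all transcript clusters were called. At an unadjusted p under 0.05, 4 of the 10 genes passed, against 3.32% of all transcript clusters. The differences were -0.95 ± 0.35 for Mpeg1, 0.82 for Laptm5, 0.82 for Fcgr2a and -0.89 for C1qc. This comparison shares the SOX10 -dox arrays with the one that chose the set, and 3 of the 4 genes, all but Fcgr2a, were inside the background range.

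On replicate 1, Mpeg1, Fcgr2a and Cd14 ran against the labels as Sox10 did, and Cybb and C1qc did not. As labelled, the difference was -5.34 for Mpeg1, 2.47 for Fcgr2a and 1.50 for Cd14, each opposite in sign to all 3 pairs of replicates 2 to 4. Past 2-fold, 3 of the 10 genes (Fcgr2a, Cd14 and C1qc) were higher under the label SOX10 +dox, against 4.77% of all transcript clusters, and 1 (Mpeg1) was lower, against 5.53%. The Sox10 difference on that pair was -6.16. With all 8 SOX10 arrays kept under their labels, the differences were 2.72 ± 1.39 for Mpeg1, -0.97 ± 0.71 for Fcgr2a, -0.80 ± 0.48 for Cd14 and 0.76 ± 0.23 for Cybb. None of the 23188 transcript clusters was then called, and 3.72% had an unadjusted p under 0.05, so every call given here depends on setting replicate 1 apart.

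Genes with the most similar pattern were sought among 15036 other genes by the root mean square (RMS) difference of mean-centred log2 signals over all 10 arrays. Nearest to Mpeg1 were Mpzl1, a cell-surface adhesion signalling protein, at 0.487, Dusp15, a phosphatase, at 0.621, Chn2, a Rac GTPase-activating protein, at 0.653, Slc22a23, a transporter, at 0.663, and Plxnb3, a semaphorin receptor, at 0.679. Nearest to Fcgr2a were Fcgr2al1 at 0.208, Fhl1, a LIM domain protein, at 0.394, Tns4, a tensin of focal adhesions, at 0.42, Ptgs1 (cyclooxygenase-1) at 0.465, and Kctd16, an auxiliary subunit of GABA-B receptors, at 0.466. Both patterns are dominated by the 8 SOX10 arrays, and the 10 arrays include the replicate 1 pair.

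**Figure D5:**
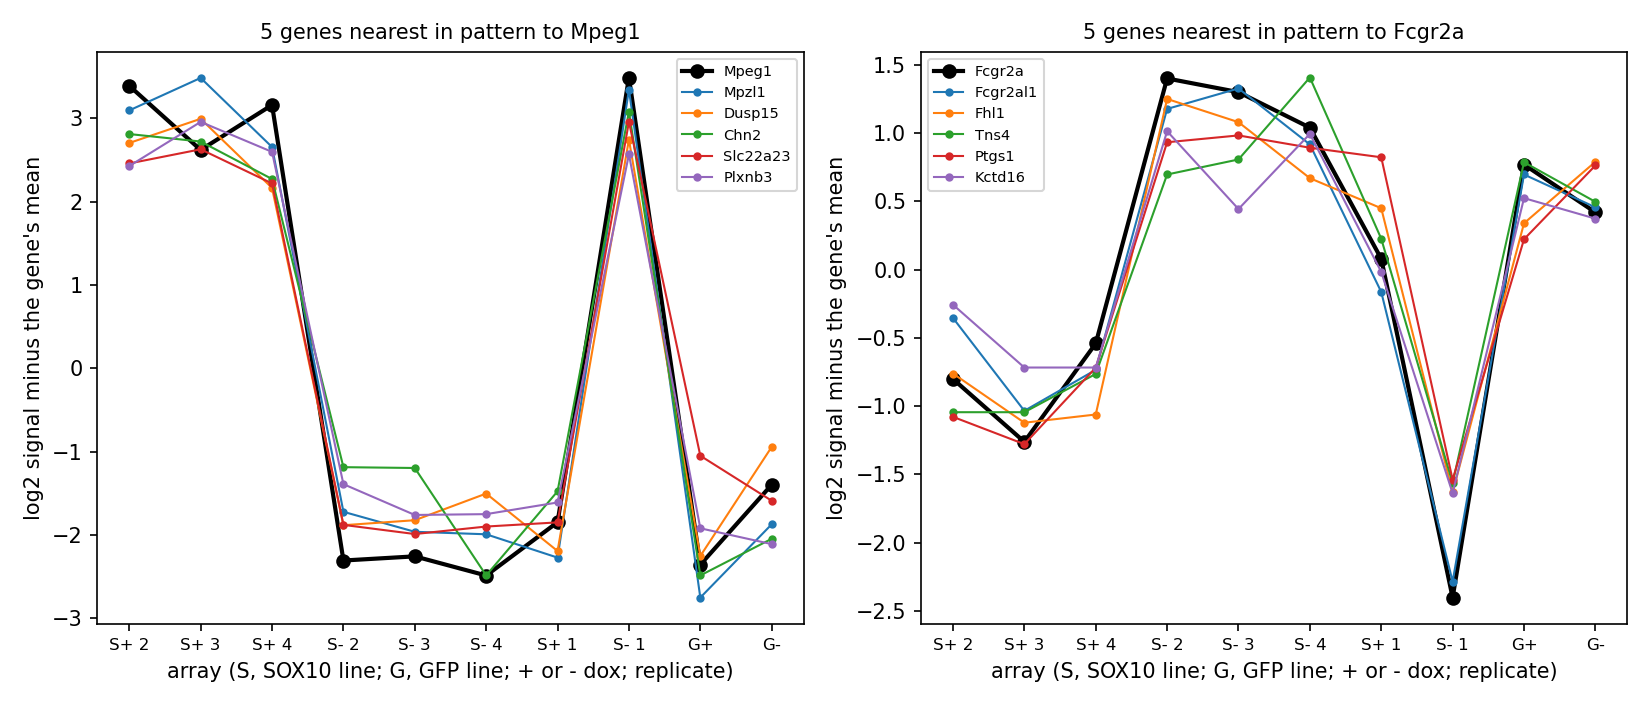
Mean-centred log2 signals over the 10 arrays for Mpeg1 and Fcgr2a (thick lines) and the 5 genes nearest to each in pattern (thin lines), as named in each legend. On replicate 1 the order of the labels is turned for both genes, with Mpeg1 higher and Fcgr2a lower on the SOX10 -dox array.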

How the data were processed

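Total RNA of JUG2 cells was hybridised to 10 Clariom S arrays. Processing by the authors used the Transcriptome Analysis Console 4.0.3.14, and the deposited values are log2 signals, 1 per transcript cluster and array, with array medians between 6.69 and 6.86. How the signals were normalized is not given here by any source. Precision is limited by the number of arrays. Of 24834 rows, 1646 controls were left out. Names came from the platform table (15049 transcript clusters, 15037 genes) and, for further clusters of Fcgr2a, from the study's supplementary list, whose values were not used.

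The 4 groups were fitted with limma 3.58.1 in R 4.3.3 to SOX10 replicates 2 to 4 and both GFP arrays (8 arrays), with Benjamini-Hochberg adjustment over 23188 transcript clusters. A DEG needed an adjusted p under 0.05 and 2-fold. The methods' adjusted p under 0.01 was an alternative, as were all 10 arrays as labelled, SOX10 arrays only, a replicate block, each array left out, array weights, trended robust variances, the dimmest clusters left out, quantile normalization, median centring and the mean of a gene's clusters. The fit was tested on simulated data.

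The methods give the replicates as independent experiments. Deviations of same-numbered +dox and -dox arrays from the group means correlated at 0.194, 0.15 and 0.411 for replicates 2, 3 and 4, so by a minimum of 0.1 the numbers were taken to pair the arrays, and the block was run as an alternative to the fit without it. Arrays of different number correlated at up to 0.171 (SOX10 +dox replicate 3 with SOX10 -dox replicate 2), so the pairing is weak for replicates 2 and 3.

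The 10 genes, the 13 gene lists and replicate 1 being set apart were chosen with earlier results of these data known. Named genes were these 10, Sox10, listed partner and macrophage genes, up to 4 called genes per list and the 5 nearest in pattern to Mpeg1 and Fcgr2a. Fcgr1a, Fcgrt, Prf1, C9, Casp1, S100b and Gfap levels were chosen after their values were seen. Promoter windows came from RefSeq (GRCr8).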

Additional observations from a re-analysis of the deposited data

Results flagged for a closer look

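The highest and lowest array of each SOX10 group of 4 were compared with the other 3 for each of the 10 genes. Of 20 such groups, 3 held an array far from the others, where chance gives about 1 in 20. On the array labelled SOX10 +dox replicate 1, Mpeg1 was 4.81, and the gap to the nearest other array took 0.853 of the group's range. On the array labelled SOX10 -dox replicate 1, Mpeg1 was 10.15 (0.962 of the range) and Fcgr2a was 9.30 (0.904 of the range). Sox10 ran against the label on both arrays. Since Mpeg1 and Fcgr2a were chosen for their separation of SOX10 +dox and -dox, these values are a description and carry no weight as a test.

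For 3 genes the difference of the GFP pair, with 1 array per group, was opposite in sign to all 3 SOX10 pairs of replicates 2 to 4. The GFP difference was -0.96 ± 0.43 for Mpeg1, 0.35 ± 0.43 for Fcgr2a and -0.68 ± 0.39 for C1qc (log2 ± SE). None of these was called, and Mpeg1 and C1qc were inside the background range on both GFP arrays. Whether the effects of the lines differ was not tested.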

How the results depend on the processing

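With all 10 arrays as labelled, every count of calls in the SOX10 line was 0, against 525 higher and 287 lower transcript clusters, 1 higher and 2 lower of the 10 genes, and 4 higher and 6 lower genes of the pathway lists. Leaving out 1 array at a time gave 333 to 639 transcript clusters higher and 140 to 324 lower, 1 to 2 of the 10 genes higher, and 1 to 7 pathway genes higher and 3 to 8 lower. The counts of the 10 genes are a description, since the set was chosen from this contrast, and the second gene was Cybb, without SOX10 -dox replicate 4. An adjusted p under 0.01 left 308 and 113 transcript clusters, and 1 and 3 pathway genes. With the replicate block, 637 transcript clusters were called higher and 375 lower, with 1 and 2 of the 10 genes and 5 and 8 pathway genes, and no named gene changed its call.

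Between the untreated lines, differences changed sign with all arrays as labelled for Mpeg1 (0.51), Fcgr2a (-0.09), Cd14 (-0.47) and Tlr2 (-0.05). With 1 array left out at a time, that of Cd14 ran between -0.06 (without SOX10 -dox replicate 3) and 0.20, and that of Tlr2 between -0.09 (without SOX10 -dox replicate 4) and 0.30. Of 149 values of the 10 genes in the SOX10 line under alternatives, 4 moved by over 1 SD, all with the arrays as labelled (Mpeg1, Fcgr2a, Cd14 and C1qc). The cause was not tested.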
